A study of Rattus norvegicus with 4 samples.

Results

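The insulin-like growth factor (IGF) system was examined in the crista ampullaris of the rat, which senses head rotation in the semicircular canals, through 10 genes: the ligands Igf1 and Igf2, the receptors Igf1r and Igf2r, and the binding proteins Igfbp2 to Igfbp7. Its members were the array probes whose current rat gene symbol is one of these 10, and all 10 were found among the 12330 genes named on the array, on 14 of its 33849 gene probes. Of the 10 genes, 4 had 2 probes each and 6 had 1. The supporting cell (SC) layer, with 2 arrays, was the deep layer of supporting cell bodies on the basal lamina. The hair cell (HC) layer, with 2 arrays, was the superficial layer with type I and type II hair cells, and it also held supporting cell cytoplasm lying between them. Both were captured by laser from the crista on the basis of morphology, the HC layer in the first pass. Strain, age and treatment are not given in the sources used here, nor is the number of animals behind an array. Without labels that tie the 2 arrays of a layer to separate animals or captures, p-values reflect no more than how far these samples vary, and that variation may be technical. Fewer cells of a type and less RNA per cell cannot be told apart in captured tissue.

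IGF1 and IGF2 are secreted growth factors that signal for growth and survival through the tyrosine kinase receptor encoded by Igf1r. The Igf2r product, which is also the cation-independent mannose 6-phosphate receptor of lysosomal sorting, takes up IGF2 for degradation and sends no such growth signal. IGFBP2 to IGFBP6 bind the ligands outside the cell with high affinity and can hold them back from the receptor or deliver them, while IGFBP7 binds them weakly and is also made by vascular endothelium. IGF1 is known as a survival factor for inner ear hair cells and neurons.

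The arrays carry a single fluorescence value per probe. Raw intensity is the scanner's background-subtracted value, and a probe counted as detected where the scanner's quality flag was good or saturated. The HC layer arrays were the brighter pair, with array medians of 12.1 and 12 in the SC layer and 26.5 and 16.98 in the HC layer, and 39.8% and 39.7% of probes detected in the SC layer against 48.8% and 45.6% in the HC layer. For tests the arrays were therefore brought to one distribution (quantile normalization) and compared on the log2 scale with limma. A change is the SC layer minus the HC layer, given with its standard error, and is called at a Benjamini-Hochberg adjusted p under 0.05. The number of arrays, 2 per layer, limits the precision of every value. Of 15 tested hair cell markers, 13 were called higher in the HC layer and 0 in the SC layer (2 did not pass the limma test). Among the 15, 4 were not detected in the SC layer and entered the test through the HC layer arrays alone. Of 17 tested supporting cell markers, 7 were called higher in each layer, so this marker list did not set the SC layer apart. Of those called higher in the HC layer, Cldn9 entered the test through the HC layer arrays alone. Across all 7771 tested genes, each taken at its brightest probe, 28.2% were called higher in the SC layer and 37.2% in the HC layer.

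Of the 14 probes, 9 were detected on all 4 arrays and 3 on none. The 10 probes detected on at least 2 arrays were tested, and they cover 7 of the 10 genes. Among them 5 were called: the single Igfbp7 probe was higher in the SC layer, and both Igfbp3 probes, 1 Igfbp5 probe and 1 Igf2r probe were higher in the HC layer. Igf1, Igf1r and Igfbp2 were detected in both layers and did not pass the test. This count has to be read against the whole array, where 67.4% of the 16483 tested probes were called, 33.5% higher in the SC layer and 33.9% higher in the HC layer; 5 of 10 is below that share, with no test of the difference. The median change was -0.30 over the 10 IGF probes and 0.013 over all tested probes. Over the 9 IGF probes detected on all 4 arrays it was -0.086, against 0.16 over all such probes. With the floor at the highest detection limit the 2 medians were -0.066 and 0.018. In raw intensity, Igfbp7 was brighter on both SC layer arrays and the other 9 tested probes were brighter on both HC layer arrays. Across the array 20.8% and 67% of the probes with 4 values did so, 87.8% in either direction, and none of the 10 IGF probes overlapped in raw intensity. The Igfbp5 probe GE19984, among the 9, was not detected in the SC layer and entered the test through the HC layer arrays alone.

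**Figure D1:**
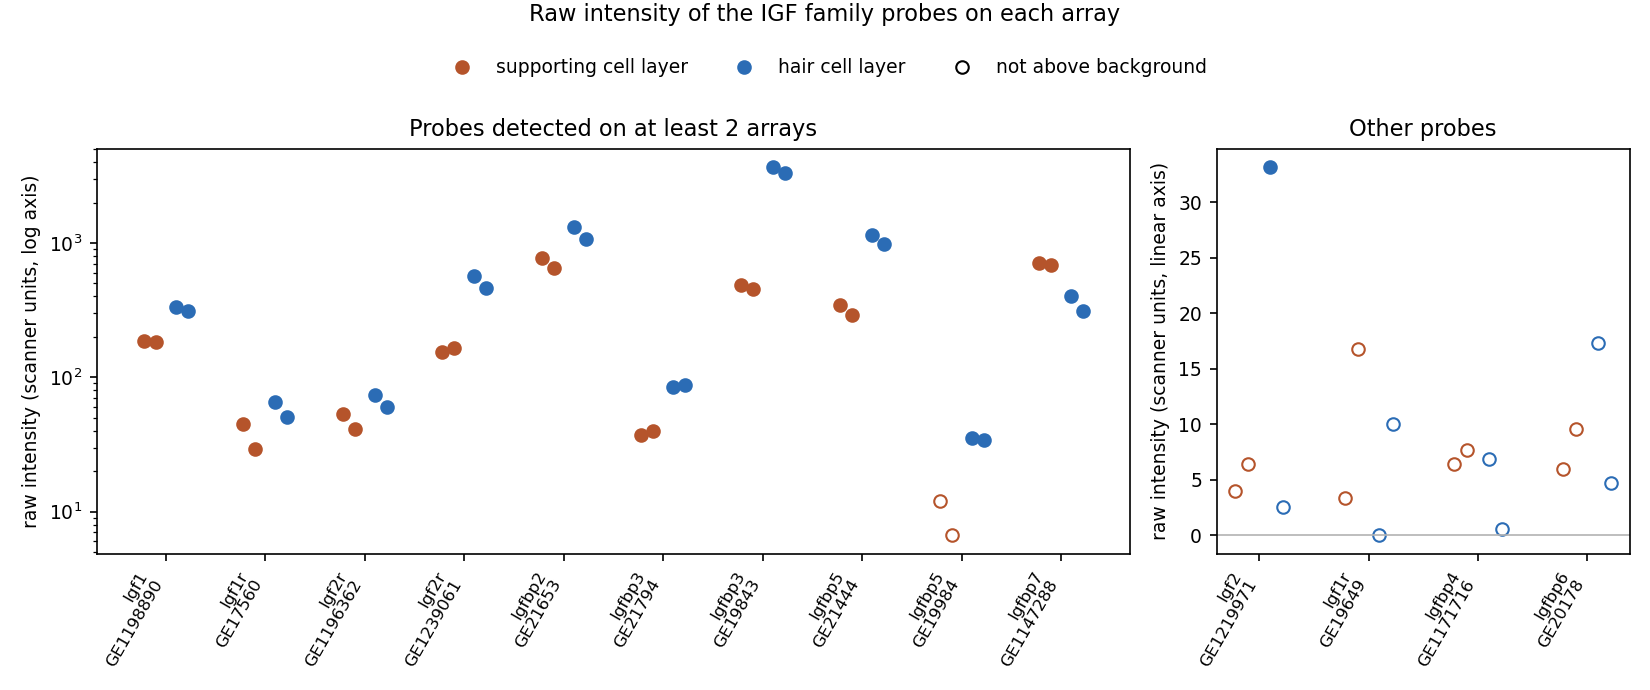
Raw intensity (vertical axes, scanner units, logarithmic on the left and linear on the right) of each IGF family probe, with 1 point per array. Orange points are the 2 SC layer arrays and blue points the 2 HC layer arrays; open points were not above background. Igfbp7 is the 1 tested probe whose SC layer points lie above both HC layer points.

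The 3 binding protein genes with a called probe are shown with the 250 bases before their RefSeq transcription start, since no probe sequence is given in the files. Capitals mark matches, on either strand, to 5 motifs searched, which were TATAA and also TATATA as forms of the TATA box, GGGCGG as the GC box, CCAAT as the CCAAT box and then CACGTG as an E-box.
Igfbp7, GRCr8 chr14:31091486-31091735, plus strand: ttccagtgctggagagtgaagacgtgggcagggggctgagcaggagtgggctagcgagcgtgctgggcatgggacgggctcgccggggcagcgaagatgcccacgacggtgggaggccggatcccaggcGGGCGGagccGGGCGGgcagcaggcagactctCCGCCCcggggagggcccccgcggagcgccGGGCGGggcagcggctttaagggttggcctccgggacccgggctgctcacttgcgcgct
Igfbp5, GRCr8 chr9:81914188-81914437, minus strand: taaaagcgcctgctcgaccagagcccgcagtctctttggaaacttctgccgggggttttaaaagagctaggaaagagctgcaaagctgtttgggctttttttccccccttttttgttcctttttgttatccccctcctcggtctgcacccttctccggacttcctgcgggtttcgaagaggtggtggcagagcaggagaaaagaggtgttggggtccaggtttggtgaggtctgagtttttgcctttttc
Igfbp3, GRCr8 chr14:86277945-86278194, minus strand: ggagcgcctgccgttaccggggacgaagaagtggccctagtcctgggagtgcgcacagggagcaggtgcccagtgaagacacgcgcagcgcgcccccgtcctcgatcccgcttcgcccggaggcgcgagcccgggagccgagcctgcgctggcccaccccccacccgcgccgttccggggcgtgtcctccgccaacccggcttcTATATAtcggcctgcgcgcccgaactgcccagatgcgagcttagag

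The Igfbp7 window is 74.4% G and C and holds 4 matches to GGGCGG, a motif present in 30.5% of the 33469 windows of this length in the RefSeq table. The Igfbp3 window, at 71.6% G and C, holds 1 match to TATATA, present in 5.45% of windows. The Igfbp5 window is 51.6% G and C and holds none of the 5. All 10 genes matched the table, with 11 windows since Igf2 has 2 starts there. TATAA occurred in 1 of the 11 windows (that of Igfbp4) and in 24% of all windows, and CACGTG in 3 (Igf1r, Igf2r and Igfbp2) and in 5.59%. GGGCGG occurred in 5 of the 11, and CCAAT in 0 of them against 34% of all windows. A match describes the letters and is not a binding site. Each of the 3 windows shown holds matches to at most 1 of the motifs, so none overlaps another motif there.

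Among the ligands, Igf1 was clearly detected in both layers at its probe GE1198890, listed under a RefSeq mRNA. Raw intensity was 188 and 184 on the SC layer arrays and 336 and 310.3 on the HC layer arrays. After normalization the values were 242 and 249 in the SC layer and 256 and 266 in the HC layer. The ranges lay side by side without overlap, but the change was small, -0.086 ± 0.072, and did not pass the limma test (adjusted p = 0.347). Its 95% interval ran from -0.30 to 0.13 on the log2 scale.

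Igf2, the fetal growth factor, had 1 probe under the naming rule, GE1219971, which the file describes as the 5′ flanking region of the Igf2 mRNA. It read 3.95 and 6.37 in raw intensity in the SC layer and 33.2 and 2.52 in the HC layer. It was detected on HC layer array 1 alone, and was not tested. A second probe, GE1179873, carries the Igf2 RefSeq mRNA in the scanner file, but the platform annotation assigns it to both Igf2 and Tor1b, so it was left out of the counts. Its raw intensity was 343 and 306 in the SC layer and 398 and 357 in the HC layer, and it was detected on all 4 arrays. Normalized values, 437 and 414 in the SC layer against 301 and 308 in the HC layer, did not overlap. The change was 0.48 ± 0.075 (limma adjusted p = 0.0127), and 8 of 14 alternative settings called it. Without HC layer array 1 or 2 it missed the threshold, with adjusted p of 0.0692 and 0.0621. The Tor1b probe with a single gene name and detected signal, GE18965, had the opposite direction, changing by -1.65 ± 0.081 (limma adjusted p = 0.00166).

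The type 1 receptor gene Igf1r was dim. Its probe GE17560, listed under an expressed sequence tag, had raw intensities of 45.1 and 29.3 in the SC layer and 64.9 and 50.5 in the HC layer. Normalized, the SC layer values, 57.6 and 38.6, lay on either side of the HC layer values, 48.4 and 45.8. The change of 0.0008 ± 0.24 did not pass the test, and its 95% interval, from -0.71 to 0.72, leaves room for a difference in either direction. The other probe, GE19649, listed under the RefSeq mRNA, was not above background on any array, with raw intensities of 3.30 and 16.8 in the SC layer and -0.041 and 9.97 in the HC layer.

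The 2 probes of Igf2r differed in outcome. GE1239061, listed under the RefSeq mRNA, read 154 and 164 in raw intensity in the SC layer and 567 and 461 in the HC layer. Its normalized values were 197 and 219 in the SC layer against 429 and 399 in the HC layer, and it was called lower in the SC layer, with a change of -0.99 ± 0.10 (limma adjusted p = 0.00499). GE1196362, listed under an expressed sequence tag, read 53.2 and 41.3 in the SC layer and 73.9 and 59.9 in the HC layer. Its normalized values overlapped, and its change of 0.13 ± 0.15 did not pass the test (adjusted p = 0.475). The change at GE1239061 minus that at GE1196362 was -1.13 on the log2 scale. This difference was not tested; an exact permutation test over 2 arrays against 2 has a smallest two-sided p of 0.333. Another probe, GE1149778, is assigned to both Ctbp1 and Igf2r and was left out of the counts. It read 732 and 695 in the SC layer and 1878 and 1707 in the HC layer, with a change of -0.63 ± 0.069 (limma adjusted p = 0.00594). The probe named for Ctbp1 alone, GE20579, changed in the same direction, by -0.87 ± 0.092.

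Igfbp3, which carries most circulating IGF in a complex with the acid-labile subunit, had the largest change among the tested IGF probes, at GE19843. That probe, listed under the RefSeq mRNA, read 483 and 456 in raw intensity in the SC layer and 3674 and 3314 in the HC layer. After normalization both pairs were tight, at 619 and 621 in the SC layer and 2928 and 2927 in the HC layer. The change was -2.24 ± 0.068 (limma adjusted p = 0.00118), which is 4.72-fold higher in the HC layer, and all 14 alternative settings called it with changes from -2.25 to -2.08. GE21794, listed under the same RefSeq mRNA, read 37.1 and 40.1 in the SC layer and 85.4 and 88.0 in the HC layer. It changed in the same direction by -0.52 ± 0.14, just past the threshold (limma adjusted p = 0.0456). Only 5 of 14 alternative settings called it. With median scaling the change was -0.39 (adjusted p = 0.333). The call was also lost without any one array: the change was -0.58 (adjusted p = 0.0892) without SC layer array 2, -0.45 (adjusted p = 0.134) without SC layer array 1, -0.37 (adjusted p = 0.116) without HC layer array 2 and -0.66 (adjusted p = 0.0534) without HC layer array 1. Both probes had the same direction, and the change at GE19843 minus that at GE21794 was -1.72 on the log2 scale. Hair cell markers moved in the same direction as the Igfbp3, Igfbp5 and Igf2r calls. The summed normalized intensity of those tested was 5537 and 5261 in the SC layer against 12347 and 13274 in the HC layer. Macrophage marker sums, over the 5 with a value on every array, were 217 and 193 against 400 and 415, but these markers did not move together. Of these 5, Aif1 and C1qa were called higher in the HC layer and were not detected in the SC layer. Cd74 was called higher in the SC layer, and Itgam and Cd14 did not pass the test. Supporting cell markers stood at 24279 and 25083 in the SC layer against 26277 and 26044 in the HC layer. The part of these cell types in the differences was not tested.

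Igfbp5, a binding protein that attaches to extracellular matrix, was lower in the SC layer at 1 probe. GE21444, listed under an expressed sequence tag, read 345 and 291 in raw intensity in the SC layer and 1157 and 977 in the HC layer. Its normalized values, 440 and 394 in the SC layer against 885 and 836 in the HC layer, did not overlap, and the change was -1.05 ± 0.097 (limma adjusted p = 0.00421). GE19984, listed under the RefSeq mRNA, was detected on both HC layer arrays and on neither SC layer array. It read 11.9 and 6.64 in the SC layer and 35.5 and 34.0 in the HC layer. Its fitted change of -1.27 ± 0.44 did not pass the test (adjusted p = 0.0782). It passed in 5 of the 13 alternative settings that could test it, among them without SC layer array 1, with a change of -1.81 (adjusted p = 0.0147). With the floor at the highest detection limit the change was -0.045 (adjusted p = 0.456). The HC layer values after normalization, 23.9 and 30.1, were about as low as the lowest detected signals of the SC layer arrays, 26.6 and 28.3, so no lower limit of a fold can be given. Another probe, GE1136021, is described in the file as the 3′ UTR of Igfbp5 and has no gene in the platform annotation, so it was left out of the counts. It read 91.1 and 102.9 in the SC layer and 196 and 208 in the HC layer, and its change, -0.40 ± 0.15, missed the threshold (adjusted p = 0.0946).

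Igfbp2 lies next to Igfbp5 on rat chromosome 9. Its probe GE21653 was bright in both layers, at 778 and 650.4 in raw intensity in the SC layer and 1311 and 1074 in the HC layer. Normalized values were 982 and 884 in the SC layer and 1006 and 918 in the HC layer. These overlapped, and the change of -0.045 ± 0.10 did not pass the test (adjusted p = 0.718), with a 95% interval from -0.36 to 0.27.

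Igfbp7 was the member higher in the SC layer. Its probe GE1147288, listed under an expressed sequence tag, read 712 and 682 in raw intensity in the SC layer and 401 and 313 in the HC layer. Normalized values were 905 and 922 in the SC layer against 304 and 268 in the HC layer. The change was 1.68 ± 0.099 (limma adjusted p = 0.00203), or 3.20-fold, and all 14 alternative settings called it, with changes from 1.52 to 1.79. Markers of endothelium and pericytes mostly moved with it: of 10 tested, 8 were called higher in the SC layer and 1, Vwf (-2.48 ± 0.16), in the HC layer. Their summed normalized intensity, over the 9 with a value on every array, was 1618 and 1643 in the SC layer against 511 and 579 in the HC layer. The markers Esam, Rgs5 and Emcn were not above background in the HC layer, so they entered the test through the SC layer arrays alone. No probe of Kdr or Pdgfrb was detected on any array. Of 8 tested connective tissue markers, 5 were called higher in the SC layer and 1, Fbn1, in the HC layer. Their sums were 2492 and 2538 in the SC layer and 1098 and 1119 in the HC layer. Fbn1 was not above background in the SC layer, and Thy1, called higher in the SC layer, was not above background in the HC layer. Each entered the test through the arrays of 1 layer alone. Lum, Pdgfra and Postn of that list were not detected on any array. Of 8 tested Schwann cell markers 2 were called higher in the SC layer and 4 in the HC layer, of 7 macrophage markers 2 and 3, and of 4 neuronal markers 2 and 2. Of the HC layer calls, Ncam1, Cd68, Aif1, C1qa, Nefl and Nefm were not detected in the SC layer. They entered the test through the HC layer arrays alone. Schwann cell marker sums were 3676 and 3629 in the SC layer against 3456 and 3440 in the HC layer. Of these, Prx made up 1690 and 1657 in the SC layer against 867 and 886 in the HC layer. Neuronal marker sums were 369 and 348 against 244 and 270, of which Kcna1 made up 233 and 228 against 68.4 and 67.9. Across all tested genes, 28.2% were called higher in the SC layer and 37.2% in the HC layer. The called markers Cldn5 of endothelium and Cd68 and Csf1r of macrophages each had a dropped spot, so that their SC layer value rests on 1 array. The part of these other cell types in the Igfbp7 difference was not tested.

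Igfbp4 and Igfbp6 were not above background on any array. The Igfbp4 probe GE1171716 read 6.40 and 7.67 in the SC layer and 6.87 and 0.56 in the HC layer. The Igfbp6 probe GE20178, for a binding protein that prefers IGF2, read 5.98 and 9.54 in the SC layer and 17.3 and 4.67 in the HC layer. Differences between the layers were not detectable at these signals. The negative control spots had a median raw intensity of 4.30 and 4.14 in the SC layer and 5.54 and 4.76 in the HC layer.

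**Figure D2:**
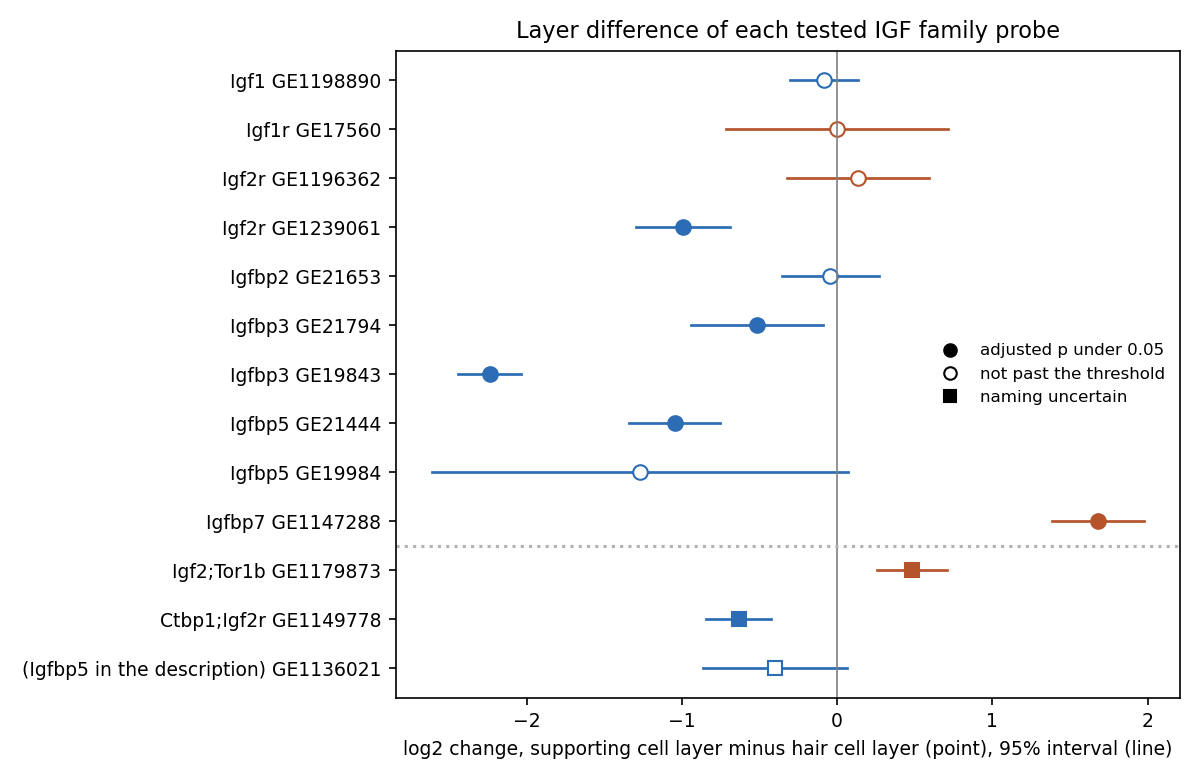
Log2 change of each tested IGF family probe, SC layer minus HC layer (horizontal axis), with its 95% interval as a line; orange is higher in the SC layer and blue higher in the HC layer. Filled points passed an adjusted p under 0.05, and the squares under the dotted line are the 3 probes whose naming is uncertain. Igfbp7 stands at 1.68 and the Igfbp3 probe GE19843 at -2.24.

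After normalization the layers did not overlap at 7 of the 10 tested probes, 1 with the SC layer above and 6 with the HC layer above. Across the array these shares were 89.2% in all, 44.7% and 44.6%. The Igfbp5 probe GE19984, 1 of the 6, entered the test through the HC layer arrays alone. The genes most like the 2 extreme probes in their 4 normalized log2 values, each centred on its own mean, were picked from 6432 and 6431 other named probes detected on all 4 arrays. For Igfbp7 these were Nkap, Lsm1 and Taf13, at distances of 0.0378, 0.0646 and 0.0778 log2 units. For GE19843 of Igfbp3 they were Cyp1a2, B4gat1 and Phc3, at 0.0342, 0.0428 and 0.0603. The 4 arrays give few values on which to compare patterns.

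The rest of the pathway was described through 8 lists of 79 genes, of which 63 had a named probe and 34 were tested at their brightest probe. Of these 34, 3 were called higher in the SC layer and 10 higher in the HC layer. Across all 7771 tested genes, 28.2% and 37.2% were called so, 65.4% in either direction. Among the 10, Stc1, Stc2, Akt2 and Cish were not detected in the SC layer and entered the test through the HC layer arrays alone. The median change over the 34 was -0.039, and -0.10 over all tested genes. Fewer genes were called when an HC layer array was left out, 6 without replicate 1 and 7 without replicate 2. With the replicate number as a block 8 were called.

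Signal of the stanniocalcins, secreted inhibitors of the pappalysin proteases that release IGF from its binding proteins, was detected in the HC layer alone. Stc2 was called higher there (limma adjusted p = 0.00179), as was Stc1 (adjusted p = 0.0454). Both probes passed the filter through the HC layer arrays alone, and their fitted changes use SC layer values not above background. The nominal lower limits of the fold, 2.44 for Stc2 and 1.45 for Stc1, were not themselves tested. They rest on the lowest detected signal of each SC layer array, which some undetected spots exceeded. The Stc1 call was lost without HC layer array 1 or 2, with adjusted p of 0.173 and 0.175. The serine protease Htra1, which can cleave binding proteins, had a fitted difference of -0.076 ± 0.13 and missed the threshold. No probe was named here for Pappa, Pappa2 or Igfals. Insr, Insrr, Igfbp1 and Igfbpl1 were detected on fewer than 2 arrays at each of their probes and were not tested, and Ins2 did not pass (0.12 ± 0.18).

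Among genes acting at the receptor, 3 of 7 tested were called, all higher in the SC layer after normalization. The shares over all tested genes were 28.2% higher in the SC layer and 65.4% in either direction. The tyrosine phosphatase gene Ptpn1, whose product dephosphorylates the insulin receptor, changed by 0.96 ± 0.069 (limma adjusted p = 0.00275). Grb10, an adaptor that restrains insulin and IGF1 receptor signalling, changed by 0.70 ± 0.19 (adjusted p = 0.0467) at a probe detected on 1 array of each layer. The call was lost without SC layer array 2 (0.51, adjusted p = 0.106), HC layer array 1 (0.84, adjusted p = 0.102) or HC layer array 2 (0.55, adjusted p = 0.178). With the floor at the highest detection limit the Grb10 change was 0.11 (adjusted p = 0.364), and 3 of 13 alternative settings called it. The adaptor Shc1 changed by 0.30 ± 0.071 (adjusted p = 0.0330), and its adjusted p lay between 0.0938 and 0.121 when any one of the 4 arrays was left out; 5 of 14 alternative settings called it, and all 14 called Ptpn1. In raw intensity, Ptpn1 was brighter on both SC layer arrays, at 799 and 746 against 695 and 597 in the HC layer. Shc1 was brighter on both HC layer arrays, at 913 and 841 against 685 and 636 in the SC layer. Raw Grb10 values overlapped, at 17.8 and 24.1 in the SC layer and 29.8 and 16.4 in the HC layer. The insulin receptor substrate Irs2 stood at 0.093 ± 0.40 and missed the threshold, while Irs1 was not above background on any array.

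Of 11 tested genes of the PI3K and AKT list, 5 were called higher in the HC layer and 0 in the SC layer. For this list and those below, the shares over all tested genes were 37.2% higher in the HC layer and 28.2% in the SC layer. Together these were 65.4%. Akt2, a kinase at the centre of insulin signalling, was called higher in the HC layer (limma adjusted p = 0.00487). It had no signal above background in the SC layer. The nominal lower limit of its fold was 2.74, which was not itself tested. The regulatory subunit gene Pik3r2 changed by -1.32 ± 0.089 (adjusted p = 0.00248). The others were Foxo4, Pik3cb and Phlpp1, and the remaining 6 did not pass. The call was lost for Pik3cb without HC layer array 1 (adjusted p = 0.0522) and for Phlpp1 without HC layer array 1 or 2 (adjusted p of 0.0656 and 0.0556). Of 14 alternative settings, 10 called Pik3cb, 8 called Phlpp1, 13 called Foxo4 and 14 called Pik3r2. In the mTOR list 2 of 6 tested genes were called, both higher in the HC layer: Akt1s1, an inhibitory subunit of mTOR complex 1 that AKT phosphorylates, at -0.68 ± 0.070 (limma adjusted p = 0.00517), and the scaffold Rptor at -0.53 ± 0.099 (adjusted p = 0.0377). The Akt1s1 call was lost with median scaling (adjusted p = 0.110), with the scanner software's normalized intensity (adjusted p = 0.320) and without the filter on dim probes (adjusted p = 0.0603). The Rptor spot on SC layer array 2 was irregular and dropped, so its SC layer value rests on 1 array, assumed to vary like the HC layer arrays. Rptor missed the threshold without HC layer array 1 or 2 (adjusted p of 0.179 and 0.180), and 6 of 12 alternative settings called it. Of 3 tested RAS and MAP kinase genes and the 1 tested IGF2 mRNA binding protein gene, none passed in limma; at an unadjusted p under 0.05 the count was also 0. In the growth hormone list the 1 tested gene, the cytokine-induced inhibitor Cish, was called higher in the HC layer (limma adjusted p = 0.0249). It was not above background in the SC layer, and the nominal lower limit of its fold, 1.13, was not itself tested. With the floor at the highest detection limit the Cish change was -0.13 (adjusted p = 0.107), and 9 of 13 alternative settings called it. The call was also lost without HC layer array 1 or 2. The growth hormone receptor Ghr was not above background on any array at any of its probes.

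**Figure D3:**
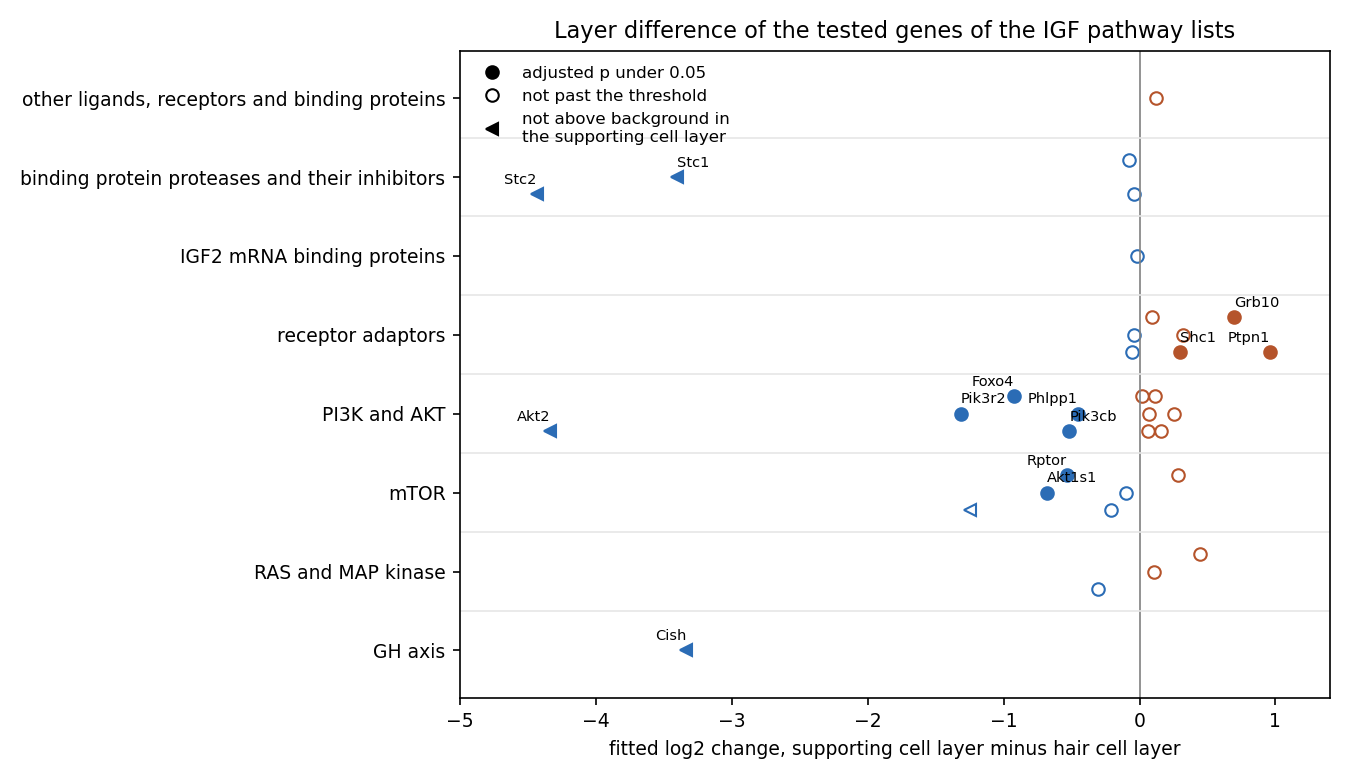
Fitted log2 change, SC layer minus HC layer (horizontal axis), of the 34 tested pathway genes by list, 1 point per gene; orange is higher in the SC layer and blue higher in the HC layer. Filled points passed an adjusted p under 0.05 and are named, and triangles were not above background in the SC layer, so that their position is no measure of size. The called genes of the PI3K and AKT and mTOR lists all lie left of 0, and those of the receptor adaptor list right of 0. Of all tested genes, 37.2% were called left of 0 and 28.2% right of 0.

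**Figure D4:**
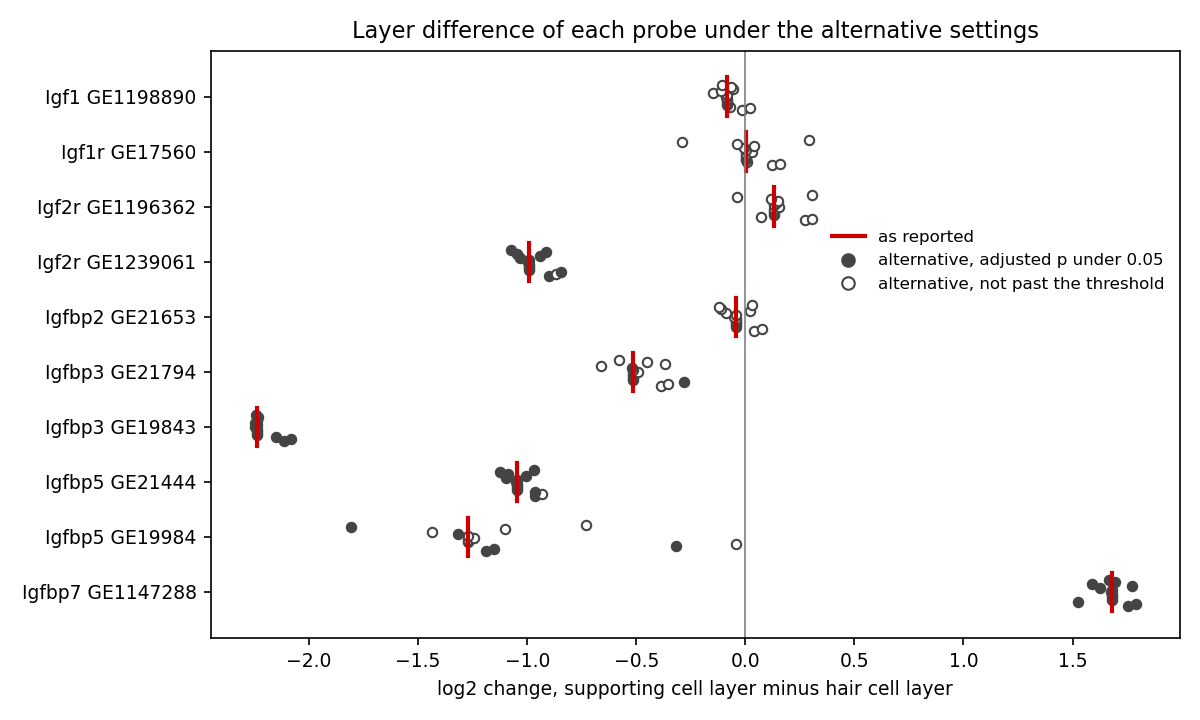
Log2 change of each tested IGF family probe, SC layer minus HC layer (horizontal axis), as reported (red bar) and under up to 14 alternative settings (points, filled where the adjusted p was under 0.05; vertical scatter has no meaning). The Igfbp3 probe GE19843 stays between -2.25 and -2.08 and Igfbp7 between 1.52 and 1.79, while the points of Igf1, Igf1r, Igfbp2 and the Igf2r probe GE1196362 fall on both sides of 0.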

How the data were processed

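Each layer was hybridized to 2 one-colour rat whole-genome arrays. Per the labels' protocols, RNA was extracted from laser-captured tissue with a commercial kit and its polyadenylated fraction amplified linearly into biotin-labelled cRNA. Per the file headers, slides were read with CodeLink Expression Analysis 4.0.0.23520. The deposited files give a background-subtracted raw intensity, a normalized intensity (raw divided by the array median) and a quality flag per spot. The deposited series table served only to link probes to the platform annotation: 35116 of its 35125 rows matched by the values of 3 columns. Its column for supporting cell layer replicate 2 equalled the scanner file in 3 of those rows and was not used.

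Of 33849 gene probes 16721 had 1 platform gene symbol, 192 were named by RefSeq accession and 10 by description, with symbols updated to the GRCr8 RefSeq annotation. Another 165 matched several genes, 9 had an accession of another gene and 16752 had none. Spots flagged contaminated, irregular or failed in manufacturing were dropped. No spot of an IGF probe was among them. Raw intensities were quantile-normalized, raised to a floor of 0.1 of the median and taken to log2. Probes detected on at least 2 arrays, 16483, were fitted with limma 3.58.1 in R 4.3.3 (lmFit, eBayes, two-sided). The fit was checked on simulated data for probes detected on all 4 arrays, with few of them changed. Normalization and the floor were not part of that check, so it does not cover them. For a probe undetected in 1 layer, each array there was given its lowest detected signal or the probe's own value, whichever was higher. The other layer's mean log2 value over the mean of these is the nominal lower limit of the fold. It is not strict, since spots not above background could read higher than the lowest detected signal of their array. Pdpk1, for example, was undetected at a normalized 33.0 on SC layer array 1, where the lowest detected signal was 26.6.

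Every IGF probe is named, with the 2 largest called changes in each direction of each pathway list and a few fixed genes; further pathway genes complete short counts and were chosen after their values were seen. The members and lists were chosen with earlier results of these data known. Same-numbered arrays of the 2 layers did not deviate together (r = -0.028 over 11059 probes, which are not independent). Each slide held 1 array, so no slide block could be fitted. Alternatives changed the normalization, floor, filter, variance prior, spot flags and block, or left out 1 array.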

Additional observations from a re-analysis of the deposited data

How the results depend on the processing

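With 2 arrays per layer, dim probes near the lowest detected signal have wide intervals or only a bound. The 5 IGF probes called became 3 with the scanner software's normalized intensity, 4 with the replicate number as a block (replicate block) and 4 to 5 without 1 array; over all 15 alternatives the count lay between 3 and 7, the 7 with the 3 uncertain probes added, an alternative chosen after seeing the data, as was scaling on probes detected on all 4 arrays. Across the array, 11112 calls became 6871 with the scanner software's normalized intensity, 6654 without a filter on dim probes, 8702 with the replicate block and 7181 to 9991 without 1 array, with 7181 and 7407 without hair cell layer replicates 1 and 2. The 13 pathway genes called became 8 with median scaling, 7 with the scanner software's normalized intensity, 5 without the filter, 8 among probes detected on all 4 arrays, where 24 genes could be tested, 8 with the replicate block and 6 to 13 without 1 array. Apart from construction (other probes tested, fewer arrays), the cause was not tested. The median change over all tested probes was 0.013 as reported, 0.10 with median scaling and 0.14 with the scanner software's normalized intensity.

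Of the 139 alternative values for the 10 tested probes, 114 kept their direction and their side of the threshold, 11 lost the call, 5 gained it and 9 turned sign, all 9 of probes that were not called either way. Igf1 turned to 0.019 with the scanner software's normalized intensity. Igf1r turned to -0.0083 with scaling on probes detected on all 4 arrays, and without 1 array it ran from -0.2885 to 0.2901. GE1196362 of Igf2r ran from -0.0406 to 0.3072 without 1 array. Igfbp2 turned to 0.0415 with median scaling and 0.0754 with the scanner software's normalized intensity, and ran from -0.1207 to 0.0314 without 1 array. Htra1 turned to 0.0551 with median scaling and 0.089 with the scanner software's normalized intensity, and ran from -0.2164 to 0.0643 without 1 array. Irs2 turned to -0.0538 with scaling on probes detected on all 4 arrays, and ran from -0.3997 to 0.585 without 1 array. GE1239061 of Igf2r and GE21444 of Igfbp5 lost their call with the scanner software's normalized intensity alone (adjusted p = 0.120 and 0.0922). GE21794 of Igfbp3 lost its call under 9 of 14 alternatives, with adjusted p = 0.0528 under the replicate block, and Rptor had 0.181 as adjusted p there. Averaged over 2 probes, the change was -0.43 for Igf2r and -1.38 for Igfbp3. The labels number the arrays alike in both layers but do not say whether the numbers pair them. The low correlation of same-numbered arrays (r = -0.028) rests on a single difference per layer, so it cannot exclude pairing. The slide as a block was not run.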
